A study of Mus musculus with 9 samples.

Results

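Apolipoproteins are the protein components of lipoprotein particles, and the 10 apolipoprotein genes described here are Apoa1, Apoa2, Apoa4, Apoa5, Apob, Apoc1, Apoc2, Apoc3, Apoe and Apom. They were chosen by name, and all 10 were among the 23337 genes of the count table and among the 13141 genes with enough reads to be tested. Against control livers, Apoa4 fell 11.02-fold in livers with hepatocyte-specific loss of PAR2 and 5.76-fold in livers labelled as whole-body PAR2 knockout. Apoc2 also fell in both, while Apoa1, Apoc1 and Apom rose in both. Apob fell in the hepatocyte-specific group, and Apoc3 and Apoe rose in the group labelled whole-body knockout; a difference between these groups was called for none of these 3. Of these calls, the falls of Apoa4 and Apoc2 and the rise of Apoa1 passed in both comparisons also when a trend with gene length, described below, was removed.

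Poly(A) RNA of 9 livers from C57BL/6 mice was sequenced with a strand-specific protocol. All mice had been fed a high-fat diet for 16 weeks from an age of 6 to 8 weeks, and no sample analysed here came from another diet. The 3 controls were floxed mice (PAR2fl/fl, labelled WT), 3 mice were labelled as lacking PAR2 in hepatocytes (PAR2dHep, dHep below) and 3 were labelled whole-body PAR2 KO. The labels name no Cre driver, no sex and no batch, and they do not say whether the whole-body line is littermate to the floxed line. PAR2, encoded by F2rl1, is a cell-surface receptor that serine proteases activate by cutting it. The title of the series ties it to dyslipidemia, obesity, fatty liver disease and the transcription factor HNF4A.

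Apolipoproteins hold lipoprotein particles together, steer them to receptors and switch lipases on or off. The liver makes most of those in plasma. Apob is the structural protein of very-low-density and low-density lipoprotein, Apoa1 and Apoa2 are the main proteins of high-density lipoprotein, and Apoe is a ligand of the receptors that clear remnants. Apoc2 activates lipoprotein lipase and Apoc3 inhibits it. HNF4A is a nuclear receptor of hepatocytes that binds near several of these genes.

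The libraries held 18683660 to 30509242 assigned reads. F2rl1, the targeted gene, had 17, 27 and 28 reads in WT and 2, 8 and 0 in dHep, but 71, 103 and 76 in the libraries labelled KO. In edgeR it was lower in dHep than in WT (log2 fold change -2.73, adjusted p = 0.0164) and higher in the libraries labelled KO (2.22, adjusted p = 0.00735), which goes against that label. The table counts whole genes, so a transcript without a deleted exon could not be told apart from an intact transcript. Every direction given below for "labelled KO" rests on the label alone. The hepatocyte markers were abundant in every library, with a summed 118102 to 178068 reads per 1000000 (CPM, that is reads scaled to a library of 1000000 with TMM factors).

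Some libraries held transcripts of other tissues. Pancreatic acinar markers summed to 2181 CPM in dHep replicate 2 and 576 CPM in WT replicate 1, and to 12.9 to 187 CPM in the other libraries. Skeletal muscle markers reached 747 CPM in dHep replicate 2, against at most 63.0 CPM elsewhere. Replicate 1 of the group labelled KO held transcripts of the intestine, a tissue that makes several apolipoproteins, among them Apoa4 and Apob. There sucrase-isomaltase (Sis) had 1620 reads and intestinal alkaline phosphatase (Alpi) 2136 reads, whereas the other libraries had 0 or 1 read of Sis and 0 to 5 of Alpi. The 11 enterocyte markers other than Fabp2, which every library held, summed to 323.7 CPM in that library and to 1.02 to 3.59 CPM in the other libraries. In the group labelled KO, Apoa4 was 530, 458 and 507 CPM, so that library was the highest of 3 close values. Without it, the log2 fold change of Apoa4 against WT was -2.56 instead of -2.53.

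Promoters of 3 members are shown because these genes moved in different directions although Apoa1 and Apoa4 lie in one gene cluster. Each is the 250 bases before the RefSeq start site (GRCm38.p6), on the plus strand. Capitals mark a match to the TATA box letters TATAAA. For Apoa1 the stretch is chr9:46228380-46228629, for Apoa4 chr9:46240594-46240843 and for Apob chr12:7977427-7977676.
Apoa1: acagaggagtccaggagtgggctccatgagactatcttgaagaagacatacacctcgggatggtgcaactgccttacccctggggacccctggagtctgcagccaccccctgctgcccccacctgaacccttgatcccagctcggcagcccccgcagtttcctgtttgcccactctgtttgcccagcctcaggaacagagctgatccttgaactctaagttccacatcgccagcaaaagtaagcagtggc
Apoa4: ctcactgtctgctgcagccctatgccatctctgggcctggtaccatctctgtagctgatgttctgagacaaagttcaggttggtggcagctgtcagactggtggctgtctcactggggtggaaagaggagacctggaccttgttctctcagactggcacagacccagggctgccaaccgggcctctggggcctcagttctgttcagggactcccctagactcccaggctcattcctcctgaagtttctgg
Apob: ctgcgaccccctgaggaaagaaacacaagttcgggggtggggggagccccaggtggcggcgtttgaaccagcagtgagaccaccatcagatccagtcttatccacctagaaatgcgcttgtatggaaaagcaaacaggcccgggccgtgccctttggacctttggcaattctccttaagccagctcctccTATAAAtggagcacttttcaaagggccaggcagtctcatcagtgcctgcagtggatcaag
Of the 10 members, 8 had promoter entries in the RefSeq table, with 12 windows of 300 bases in all. Apoc1 and Apoc3 were not among them. Both strands were searched without mismatches. TATAAA was in 5 of the 12 windows, against 13.6% of the 32851 windows of all genes. Those 5 windows belong to 4 genes, since the pair of Apoa5 windows overlaps and shares 1 match. The hexamer AGGTCA, bound by many nuclear receptors, was in 2 of 12, against 16.3% of all windows. CAAAGTCCA, a sequence that HNF4A prefers over other nuclear receptors, was in 0 of 12, against 0.475% of all windows. A sequence this rare would be missing from most sets of 12 windows, so its count says nothing about HNF4A binding. The motif counts say only whether these letters are in the windows, and sites with other letters were not searched.

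The level of a gene is given as RPKM, reads per kilobase of exon and 1000000 reads, computed from the reads, the TMM-scaled library size and the gene length in the table. In WT, Apoa2 had the highest level, 12317 ± 629 RPKM (SD, n = 3), followed by Apoe, Apoc1, Apoa1, Apoc3, Apoa4, Apoc2, Apob, Apoa5 and Apom. The last, Apom, which carries sphingosine-1-phosphate on high-density lipoprotein, was at 145 ± 3.39 RPKM. In WT only Apoc3 and Apoa4 overlapped among neighbours in this order. Apoa4 was 6th of 10 in WT, against 10th in dHep and 9th in KO-labelled libraries, where it overlapped Apom. Apoa2, Apoe, Apoc1, Apoa1 and Apoc3 held ranks 1 to 5 in every group, although in dHep Apoc1 overlapped both Apoe and Apoa1 and took the higher rank over Apoe when levels were scaled as transcripts per 1000000 (28 of the 30 ranks were the same on that scale). In the group labelled KO, Apoc1 overlapped Apoa1 and Apob overlapped Apoa5.

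**Figure D1:**
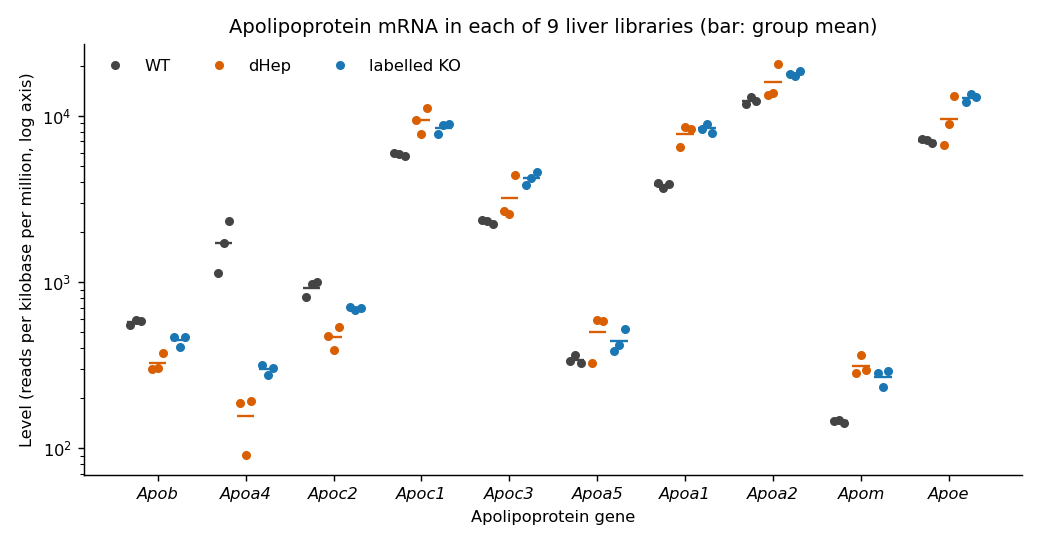
Level of each apolipoprotein gene (vertical log axis, RPKM) in the 9 libraries, 3 points per group, with a bar at the group mean. Apoa4 spans 1137 to 2323 in WT and 90.7 to 191 in dHep, and the points of the libraries labelled KO lie between them at 275 to 318.

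In dHep against WT, 3 members rose and 3 fell by edgeR's quasi-likelihood test (adjusted p under 0.05), and 4 had no call. Of all 13141 genes tested, 24.3% were called in that comparison, 12.4% as risen and 11.9% as fallen. The values of the groups did not overlap for 8 of the 10 members, against 43.4% of all genes. Between the libraries labelled KO and WT, 5 rose, 2 fell and 3 had no call, where 43% of all genes were called, 20.9% as risen and 22.1% as fallen. For all 10 members the groups did not overlap there, against 66.2% of all genes. Among the 814 genes at least as abundant as Apom, the members included, 40% and 47.5% were called. The median log2 fold change of the members was 0.46 in dHep and 0.54 in the group labelled KO, against 0.02 and -0.01 for all genes tested. These comparisons share the WT libraries. With total assigned reads and no TMM factors, a scaling chosen after seeing the data, rises made up 27.7% of called genes in dHep and 28.9% in the group labelled KO, against 50.9% and 48.7% with TMM. On that scaling 3 members rose and 3 fell in dHep, and 4 rose and 3 fell in the group labelled KO. Of all 13141 genes, 1526 rose and 3763 fell in the group labelled KO on that scaling. In dHep, 2326 of the 3192 genes called with TMM were called again.

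**Figure D2:**
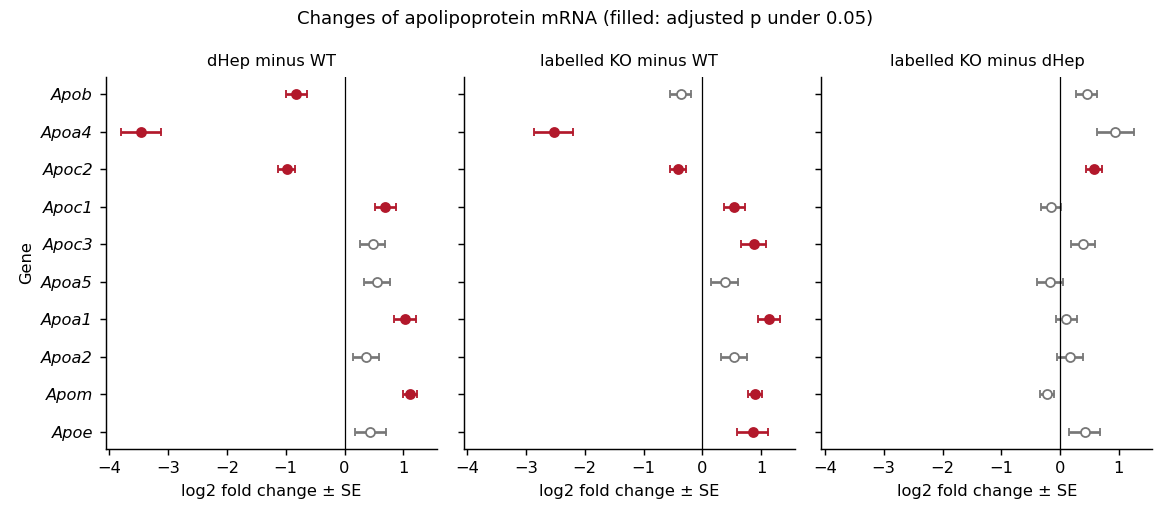
Fitted log2 fold change with its standard error for the 10 genes (vertical axis) in each of the 3 comparisons, with filled points where the adjusted p of edgeR is under 0.05. In both comparisons with WT, Apoa4 lies far to the left, at -3.46 and -2.53, and Apoa1 lies near 1, at 1.02 and 1.13.

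Apoa4, a protein of intestinal and hepatic lipoproteins that is known to rise in fatty liver, had 1137, 1709 and 2323 RPKM in WT. It had 188, 90.7 and 191 RPKM in dHep and 318, 275 and 304 RPKM in KO-labelled libraries. The lowest WT library was above the highest library of either other group, and no library of dHep reached those labelled KO. The log2 fold change was -3.46 ± 0.34 (SE) in dHep (edgeR adjusted p = 0.000392) and -2.53 ± 0.33 in the group labelled KO (adjusted p = 0.000604). By absolute change Apoa4 ranked 99th of all 13141 genes in dHep and 376th in the group labelled KO.

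Apob, the structural protein of the particles that carry triglyceride out of the liver, had 547, 589 and 585 RPKM in WT. It had 299, 303 and 373 RPKM in dHep and 465, 405 and 468 RPKM in KO-labelled libraries. The 3 groups did not overlap, with dHep lowest and WT highest. Apob fell by 0.82 ± 0.18 on the log2 scale in dHep (edgeR adjusted p = 0.0109). The difference was -0.36 ± 0.18 in the group labelled KO, which did not pass (adjusted p = 0.124). That difference passed under 5 of 21 alternatives, among them DESeq2 (adjusted p = 0.0142) and limma voom (adjusted p = 0.00504). It changed sign under 1, the removal of the length trend described below. The call in dHep ended when only the WT and dHep libraries were fitted (adjusted p = 0.0543), and without WT replicate 1, dHep replicate 2 and replicate 1 labelled KO together (adjusted p = 0.0670).

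The C apolipoproteins, small proteins that govern triglyceride lipolysis, moved in different directions. Apoc2, the activator of lipoprotein lipase, had 808, 966 and 999 RPKM in WT, against 473, 390 and 538 in dHep and 705, 679 and 698 in KO-labelled libraries. The groups did not overlap, and again dHep was lowest. Apoc2 fell by 0.98 ± 0.14 on the log2 scale in dHep (edgeR adjusted p = 0.00191) and by 0.41 ± 0.14 in the group labelled KO (adjusted p = 0.0364). The second call ended without WT replicate 2 or 3 or without any 1 of the libraries labelled KO (adjusted p from 0.0880 to 0.126).

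Apoc3, the inhibitor of lipoprotein lipase, had 2353, 2321 and 2232 RPKM in WT and 3816, 4240 and 4577 in the libraries labelled KO. In dHep it had 2655, 2562 and 4410 RPKM, with replicate 3 far above the others. The rise of 0.87 ± 0.21 (log2) in the group labelled KO passed the test (edgeR adjusted p = 0.00941). The difference of 0.48 ± 0.21 in dHep did not (adjusted p = 0.126). Apoc1 had 5941, 5841 and 5705 RPKM in WT, against 9463, 7733 and 11118 in dHep and 7782, 8727 and 8930 in KO-labelled libraries. WT was lowest without overlap. Apoc1 rose by 0.70 ± 0.18 (log2) in dHep (edgeR adjusted p = 0.0215) and by 0.54 ± 0.18 in the group labelled KO (adjusted p = 0.0347). Both Apoc1 calls ended without WT replicate 1, 2 or 3 (adjusted p from 0.0552 to 0.0821 in dHep and 0.0728 to 0.0995 in the group labelled KO). The rise in the group labelled KO also ended without any 1 of its own libraries (adjusted p from 0.0505 to 0.110).

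Apoa1 and Apoa2 are the main proteins of high-density lipoprotein, and Apom rides on the same particles. Apoa1 had 3931, 3672 and 3876 RPKM in WT, against 6500, 8555 and 8285 in dHep and 8338, 8963 and 7826 in KO-labelled libraries. Every library of the other groups was above every WT library. The rises were 1.02 ± 0.18 in dHep (edgeR adjusted p = 0.00517) and 1.13 ± 0.18 in the group labelled KO (adjusted p = 0.00152) on the log2 scale. Apom had 145, 148 and 141 RPKM in WT, against 281, 364 and 297 in dHep and 284, 234 and 290 in KO-labelled libraries. It too was lowest in WT without overlap. Apom rose by 1.12 ± 0.12 (log2) in dHep (edgeR adjusted p = 0.000711) and by 0.89 ± 0.12 in the group labelled KO (adjusted p = 0.000769). Apoa2 ran from 11686 to 12943 RPKM in WT, against 13402 to 20573 in dHep and 17438 to 18502 in KO-labelled libraries. It had no call, with differences from WT of 0.37 ± 0.22 (edgeR adjusted p = 0.239) and 0.54 ± 0.22 (adjusted p = 0.0694). The second difference passed under 7 of 21 alternatives. Among them were DESeq2 (adjusted p = 0.00539) and the edgeR fit of only the 2 compared groups (adjusted p = 0.00113). It changed sign under 1, the removal of the length trend (-0.10).

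Apoe, the remnant ligand that macrophages also make, had 7278, 7090 and 6846 RPKM in WT, and 12068, 13551 and 12859 in the libraries labelled KO. In dHep it had 6690, 8932 and 13134 RPKM, a range that took in all WT values. The rise of 0.86 ± 0.26 (log2) in the group labelled KO passed (edgeR adjusted p = 0.0262), and the difference of 0.44 ± 0.26 in dHep did not (adjusted p = 0.249). The Apoe call ended without WT replicate 1, 2 or 3, or without replicate 2 or 3 labelled KO (adjusted p from 0.0545 to 0.0800). Of 19 macrophage markers, 0 rose in either group, and 9 (47.4%) fell in dHep and 15 (78.9%) in the group labelled KO. Of all genes, 11.9% and 22.1% fell. The summed macrophage level was 913 to 1170 CPM in WT, against 469 to 736 CPM in dHep and 252 to 429 CPM in KO-labelled libraries. Apoa5, which enhances triglyceride hydrolysis, ran from 324 to 361 RPKM in WT, against 323 to 589 in dHep and 387 to 521 in KO-labelled libraries. It had no call, with differences from WT of 0.55 ± 0.22 (edgeR adjusted p = 0.104) and 0.38 ± 0.22 (adjusted p = 0.195). These Apoa5 differences passed under 2 and 3 of 21 alternatives.

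Of 15 hepatocyte markers, 4 rose in dHep and 9 in the group labelled KO, and none fell. That is 26.7% and 60% called, against 24.3% and 43% of all genes, and among the 814 abundant genes 249 and 268 rose. The list had median log2 fold changes of 0.44 and 0.62. The summed level was 118102 to 124305 CPM in WT, against 123810 to 178068 CPM in dHep and 131885 to 147721 CPM in KO-labelled libraries. The called markers of stellate cells, fibroblasts and endothelium fell, as did those of macrophages. Of all genes, 11.9% fell in dHep and 22.1% in the group labelled KO. Of 12 stellate cell and fibroblast markers, 6 fell in dHep and 9 in the group labelled KO, with sums of 676 to 763 CPM in WT and 295 to 541 CPM in the other libraries. Of 10 endothelial markers, 4 and 9 fell, with sums of 371 to 405 CPM in WT and 171 to 339 CPM in the other libraries. None of either list rose. Calls of cholangiocyte and lymphocyte markers were mixed. Of 8 cholangiocyte markers, 1 fell in dHep, and 2 rose and 1 fell in the group labelled KO (medians 0.22 and 1.04). Their sums were 133 to 200 CPM in WT and 46.5 to 121 CPM in the other libraries. Of 10 lymphocyte markers, 1 rose and 1 fell in dHep, and 1 rose and 3 fell in the group labelled KO (medians -0.39 and -0.59). Their sums were 33.7 to 36.1 CPM in WT and 12.9 to 26.2 CPM in the other libraries. In bulk liver RNA, a change in the share of a cell type cannot be told apart from a change in RNA per cell, and the part of cell composition in the rises of Apoa1, Apom, Apoc1, Apoc3 and Apoe was not tested.

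The changes against WT differed with gene length. Over all genes with fewer than 1000 exon bases the median log2 fold change was 0.39 in dHep and 0.48 in the group labelled KO, and over genes with more than 4000 it was -0.13 and -0.26. Among the 75 short genes at least as abundant as Apom, 64% rose in dHep and 66.7% in the group labelled KO, with medians of 0.52 and 0.54. Most apolipoprotein genes are short. Apoa2, Apoc3, Apoc1, Apoc2, Apom and Apoa1 have 521, 524, 540, 631, 715 and 985 exon bases, and Apoe, Apoa4 and Apoa5 have 1251, 1666 and 2321. Apob, with 13909, is the longest. Of the members under 1000 bases, Apoc1, Apoa2 and Apoc3 were at 0.70, 0.37 and 0.48 in dHep and at 0.54, 0.54 and 0.87 in the group labelled KO. Apoa1 and Apom, in the same class, were at 1.02 and 1.12 in dHep and at 1.13 and 0.89 in the group labelled KO. Apoc2 was the only 1 of the 75 that fell, in either comparison. Apoa4 fell in a class where 4.21% did in dHep and 7.28% in the group labelled KO.

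When each library's trend with length was removed before the edgeR fit (a fit chosen after seeing the data), 4 members were called in dHep and 3 in the group labelled KO. In the group labelled KO that fit called 5249 of 13141 genes. In dHep it called 2542 of the 3192 genes called in the main fit again. Apoa4 changed by -3.59 and -2.70 in these fits and Apoc2 by -1.42 and -0.98, with adjusted p from 0.000197 to 0.000463. Apoa1 rose by 0.74 in both (adjusted p = 0.0212 and 0.0130). Apom rose by 0.75 in dHep (adjusted p = 0.0181) and had 0.38 in the group labelled KO without a call (adjusted p = 0.120). The calls of Apob in dHep (-0.55, adjusted p = 0.122), of Apoc1 in both (0.21 and -0.09, adjusted p = 0.307 and 0.629), and of Apoc3 (0.23, adjusted p = 0.221) and Apoe (0.56, adjusted p = 0.0855) in the group labelled KO ended. The median over the members went from 0.46 to 0.08 and from 0.54 to 0.16. The source of the length trend was not tested.

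**Figure D3:**
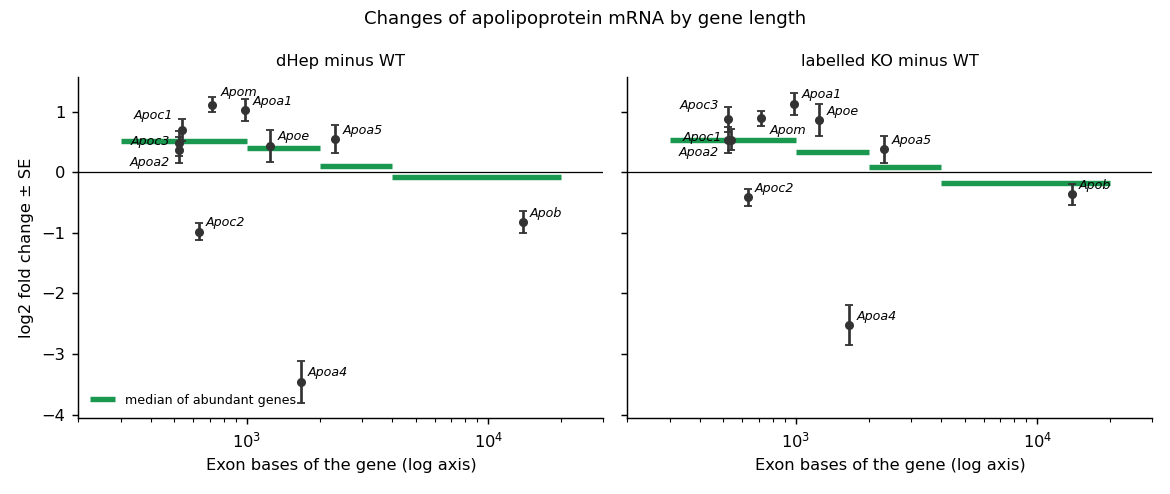
Log2 fold change with its standard error of each apolipoprotein gene (vertical axis) against its exon bases (horizontal log axis), in dHep (left) and the libraries labelled KO (right) against WT. Green bars are the median over abundant genes of 4 length classes, from 0.52 to -0.08 on the left and from 0.54 to -0.18 on the right; Apoc2 and Apoa4 lie far below the bar of their class.

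Between the libraries labelled KO and dHep, Apoc2 was the only member called, where 9.62% of all genes were, 4.23% higher and 5.39% lower in the group labelled KO. It was higher in the libraries labelled KO by 0.57 ± 0.14 (log2, edgeR adjusted p = 0.0336). Apoa4 (0.94 ± 0.31, adjusted p = 0.0886 in edgeR) and Apob (0.46 ± 0.18, adjusted p = 0.130) also did not overlap between these groups but had no call. Non-overlap was found for 26.5% of all genes. With 2 SE on either side, the difference was -0.26 to 0.47 for Apoa1 and -0.47 to 0.02 for Apom. Values inside these intervals cannot be told apart with 3 libraries a group.

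**Figure D4:**
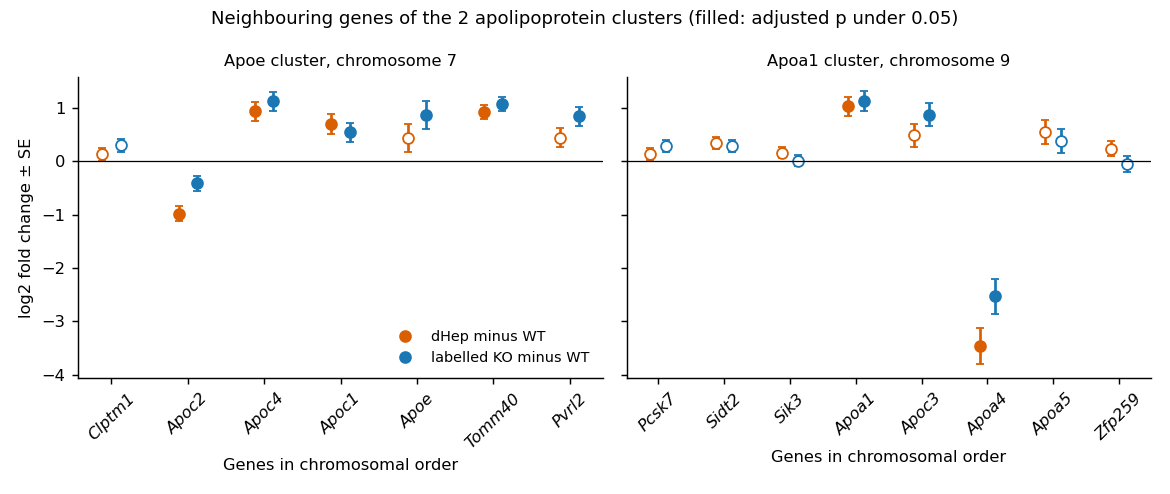
Log2 fold change against WT with its standard error (vertical axis) for the genes of the Apoe cluster (left) and the Apoa1 cluster (right) and their neighbours, in chromosomal order, with filled points where the adjusted p of edgeR is under 0.05. Apoc2 lies below 0 beside Apoc4 at 0.93 and 1.12, and Apoa4 lies below 0 between Apoc3 and Apoa5.

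Of the members, 7 lie in a pair of gene clusters (mm10 coordinates). On chromosome 7 the minus strand carries Apoc2 (chr7:19671579-19676864), Apoc4, Apoc1 (chr7:19689481-19692658) and Apoe (chr7:19696244-19699166). On chromosome 9 lie Apoa1 (chr9:46228630-46230466, plus strand), Apoc3 (chr9:46233051-46235297, minus), Apoa4 (chr9:46240844-46243458, plus) and Apoa5 (chr9:46268608-46271919, plus). Apoa2 (chr1:171225054-171226379, plus), Apob (chr12:7977677-8016839, plus) and Apom (chr17:35128997-35131752, minus) stand alone. No exon of a member overlaps an exon of another gene on either strand in the annotation.

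Both clusters held called rises and called falls. Apoc4, separated from Apoc2 by 1229 bases, rose by 0.93 ± 0.18 in dHep (edgeR adjusted p = 0.00674) and by 1.12 ± 0.18 in the group labelled KO (adjusted p = 0.00143), while Apoc2 fell. With the length trend removed Apoc4 still passed, at 0.38 and 0.43 (adjusted p = 0.0246 and 0.00858). In the other cluster Apoa4 fell and Apoa1 rose in both comparisons, while of the genes on either side of Apoa4 only Apoc3 was called, as risen in the group labelled KO. Among the flanking genes, Tomm40, next to Apoe and encoding a channel of the mitochondrial outer membrane, rose in both comparisons (0.92 and 1.07), and Pvrl2 rose in the libraries labelled KO (0.84). Clptm1, Pcsk7, Sidt2, Sik3 and Zfp259 had no call in either.

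Ratios within a library do not depend on its scaling to other libraries. The level of Apoc4 over that of Apoc2 was 0.793 ± 0.0891 (SD, n = 3) in WT, against 2.93 ± 0.357 in dHep and 2.28 ± 0.143 in KO-labelled libraries. Apoc3 over Apoc2, the lipase inhibitor over the activator, was 2.91, 2.40 and 2.23 in WT. It was 5.62, 6.57 and 8.19 in dHep, and 5.41, 6.24 and 6.56 in KO-labelled libraries. Apoa1 over Apob was 7.19, 6.23 and 6.63 in WT, against 21.7, 28.3 and 22.2 in dHep, and 17.9, 22.1 and 16.7 in KO-labelled libraries. In all of these ratios each library of dHep and of the group labelled KO was above each WT library. Apob is long and Apoa1 short, so the length trend bears on that ratio, whereas Apoc2, Apoc3 and Apoc4 are all under 1000 bases. Apoe over Apoc1, neighbours in their cluster, had a mean of 1.21 in WT and 1.51 in the libraries labelled KO, and 0.707, 1.16 and 1.18 in the dHep libraries.

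**Figure D5:**
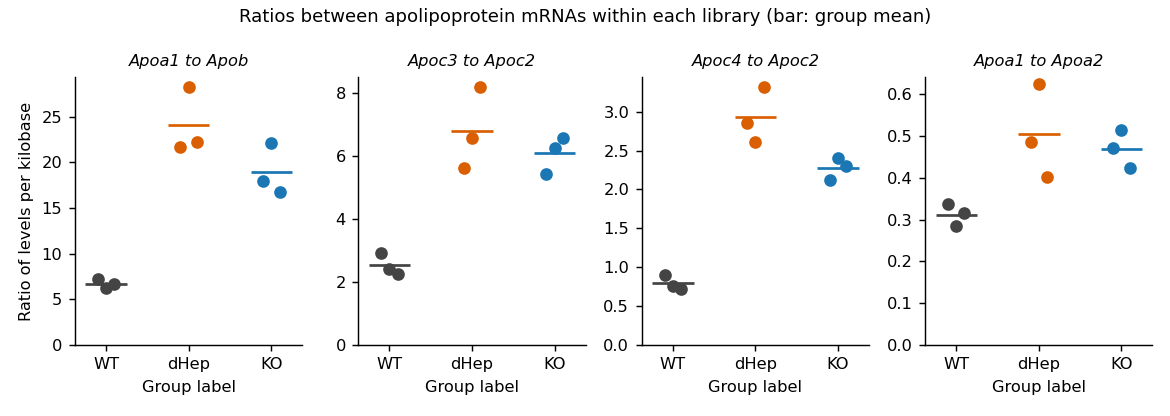
Ratio of levels per kilobase between pairs of apolipoprotein genes (vertical axes, each from 0) in each library by group label, with bars at the group means. For Apoa1 to Apob, Apoc3 to Apoc2 and Apoc4 to Apoc2 the WT points lie below all others, as in the ratio of Apoa1 to Apoa2, with means of 0.312, 0.504 and 0.469.

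The 10 genes took 3.74%, 3.87% and 4.01% of assigned reads in WT, against 3.71%, 3.59% and 4.50% in dHep, and 4.52%, 4.84% and 4.59% in KO-labelled libraries. The shares in the group labelled KO were above those of the other groups in every library. By an exact two-sided permutation test the p was 1 for dHep against WT and 0.1 for each comparison with the group labelled KO, the smallest that 3 against 3 libraries allow. Summed RPKM, in which short genes weigh more, gave another order. It had log2 ratios of 0.44 for dHep and 0.62 for the group labelled KO against WT (exact permutation p = 0.1 for both) and 0.18 between these groups (p = 0.4), with dHep replicate 3 above all libraries labelled KO. Of the assigned reads of the 10 members, without scaling to length, Apob gave 22.1% to 22.6% in WT and 10.2% to 13.7% in the other libraries. Apoa4 gave 5.51% to 10.6% in WT and 0.392% to 1.12% elsewhere.

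Hnf4a, the regulator named in the title, had 112, 109 and 114 RPKM in WT, against 132, 161 and 124 in dHep and 145, 125 and 149 in KO-labelled libraries. WT was lowest without overlap. The differences of 0.31 ± 0.13 and 0.32 ± 0.13 (log2) had no call in edgeR (adjusted p = 0.105 and 0.0692), and passed under 2 and 6 of 21 alternatives. Among these was the removal of the length trend, with 0.42 and 0.51 (adjusted p = 0.0165 and 0.00437).

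Genes around the apolipoproteins were read from lists that, like the members, were chosen with earlier results known. Their medians stand beside 0.02 and -0.01 for all genes, and their shares called beside 24.3% in dHep and 43% in the group labelled KO. Of 18 other apolipoprotein and related genes tested, 5 rose and 4 fell in dHep, and 8 rose and 3 fell in the group labelled KO (medians 0.31 and 0.51, 50% and 61.1% called). Apon and Apof, secreted apolipoproteins of the liver, were higher in the libraries labelled KO than in dHep (0.91 and 0.69, edgeR adjusted p = 0.00652 and 0.0234). The acute-phase apolipoprotein gene Saa2 fell in both comparisons with WT (-2.27 and -1.43). Of 25 genes listed for the assembly of very-low-density lipoprotein, 2 rose and 5 fell in dHep, and 5 rose and 5 fell in the group labelled KO (medians 0.0057 and -0.08). The shares called, 28% and 40%, were near those of all genes. Among the calls in the group labelled KO, Dgat1, which makes triglyceride, rose by 0.66, and Acat2 fell by 0.95; the enzyme it encodes acts early in cholesterol synthesis rather than in particle assembly.

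Of 21 lipoprotein receptor and endocytosis genes, 7 rose and 3 fell in dHep, and 8 rose and 4 fell in the group labelled KO (medians 0.21 and 0.37, 47.6% and 57.1% called against 24.3% and 43% of all genes). Lrp1, a receptor for Apoe-bearing remnants, rose by 0.59 and 0.85, and Scarb1, the receptor for high-density lipoprotein, by 0.48 and 0.79 (edgeR adjusted p = 0.00616, 0.000641, 0.0144 and 0.000807). The fatty acid transporter Cd36 fell by 2.71 and 2.85. Of 20 lipase, transfer protein and high-density lipoprotein genes, 6 rose and 5 fell in dHep, and 8 rose and 7 fell in the group labelled KO (medians -0.13 and -0.17, 55% and 75% called). Lcat, an enzyme that Apoa1 activates, rose by 0.74 and 0.78. Hepatic lipase, Lipc, rose by 0.74 and 0.78, and lysosomal lipase, Lipa, fell by 1.00 and 1.36. Of 33 transcription factor genes known to act on apolipoprotein genes, 12 rose and 1 fell in dHep, and 14 rose and 5 fell in the group labelled KO (medians 0.43 and 0.45, 39.4% and 57.6% called).

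The nearest patterns, by log2 CPM centred per gene over the 9 libraries, were found for the 3 members whose group means span at least 1. For Apoa4 they were 2010003K11Rik, Dtl and Nrg1, with root-mean-square differences of 0.221, 0.294 and 0.304. For Apoa1 they were Mpnd, Mtfp1 and Tomm40 (0.0789, 0.0878 and 0.0951), and for Apom Slco2a1, Atg4d and Upb1 (0.124, 0.130 and 0.131). 2010003K11Rik had 43.0 to 97.2 CPM in WT, against 5.74 to 9.96 in dHep and 12.2 to 16.0 in KO-labelled libraries, in the same order of groups as Apoa4. Dtl and Nrg1 reached at most 0.570 and 0.120 CPM in dHep and 0.752 and 0.407 CPM in KO-labelled libraries. Their patterns therefore rest on few reads there.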

How the data were processed

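Per the labels' protocols, liver poly(A) RNA was made into stranded TruSeq libraries. Per the submitters' processing notes, the authors aligned reads with HISAT2 2.1.0 to mm10. Raw read counts per gene come, per the file headers, from featureCounts 1.6.2 (strand setting 2) and were deposited as 1 table, and the deposited Length column (unit: bases, classed as other) was used for RPKM. The submitters' notes also name DESeq2, whose output was not used. Replicates are libraries that the labels number 1 to 3. Depth is 18683660 to 30509242 assigned reads per library.

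The members and gene lists were chosen with earlier results of these data known. Genes were kept with filterByExpr (minimum count 10, total 15), scaled by TMM and fitted in 1 edgeR 4.0.16 quasi-likelihood model (R 4.3.3) of all 9 libraries without a block. P values were adjusted by Benjamini-Hochberg over 13141 genes, with a threshold of 0.05, and all adjusted p in the text come from it unless another tool is named. SE is the log2 fold change divided by the square root of F. The rule for named genes took all 10 members, Hnf4a, F2rl1, cluster neighbours, and up to 3 called genes per list and direction, of which some are printed. The 3 nearest patterns were named for members whose group means span at least 1. Alternatives were median-of-ratios size factors, scaling without the members, DESeq2 1.42.0, limma 3.58.1 voom, no or stricter filters (1 CPM in 3 libraries), 2 groups, a replicate block, and leaving out libraries. Total reads without factors, length-trend removal (lowess span 0.3) and leaving out 3 libraries together were added after the data were seen. The tests were tried on simulated counts, also with a length trend. Promoter windows are from RefSeq (GRCm38.p6).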

Additional observations from a re-analysis of the deposited data

Results flagged for a closer look

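The change of Apoc2 against WT was called as different between the groups. It was 1 call among 10 members, where 9.62% of all genes were called. The test of that difference, the group labelled KO minus dHep, gave 0.57 on the log2 scale (edgeR adjusted p = 0.0336), with all 3 libraries labelled KO above all 3 dHep libraries. The difference passed under 11 of 21 alternatives and missed the threshold under 10, with adjusted p from 0.00196 to 0.153. Among those it missed were the fit of only the 2 compared groups (edgeR adjusted p = 0.0886) and the replicate block (adjusted p = 0.0503). The fit without dHep replicate 2 and the fits without any 1 of the libraries labelled KO missed it too.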

How the results depend on the processing

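Over 630 checks of the 10 members, in 3 comparisons under 21 alternatives each, 554 kept direction and side of the threshold, 43 lost the call, 24 gained a call and 9 changed sign. The falls of Apoa4 and Apoc2 in dHep and the rises of Apoa1 and Apom in dHep passed under all 21, as did Apoa4 and Apoa1 in the group labelled KO. With the length trend removed, Apoa2 and Apoc3 in dHep went to -0.14 and -0.039. Apoa2, Apob and Apoc1 in the group labelled KO went to -0.10, 0.10 and -0.090, and Apoa1 between the groups to -0.0025. Members called in the group labelled KO went from 7 to 3 in that fit, and all genes called from 5653 to 5249. Apoa1 between the groups was -0.0067 without dHep replicate 1, and Apoa5 was 0.035 with limma voom and 0.046 without WT 1, dHep 2 and KO 1. Hnf4a between the groups (0.0072) ran from -0.069 to 0.12 when 1 library was left out, and was -0.017 with total reads only. The cause was not tested.

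Leaving out 1 library gave 1359 (WT 3) to 4025 (dHep 2) called genes in dHep against WT, where 3192 were called, and 5 to 8 members. It gave 3835 to 6547 genes and 4 to 9 members between the group labelled KO and WT, and 386 (KO 3) to 2809 (dHep 3) genes and 0 to 4 members between the groups. Between the groups, where 1264 genes and 1 member were called, DESeq2 called 2068 genes and 3 members, limma voom 802 genes, and the fit of 2 groups 342 genes and 0 members. Without WT 1 and dHep 2 it was 495 genes and 0 members, and without KO 1 as well 550 and 0. With total reads only, the median of all genes moved by -0.16 in dHep and -0.19 in the group labelled KO. Rises were then 27.7% and 28.9% of calls, against 50.9% and 48.7% with TMM. On that scaling 3 members rose and 3 fell in dHep, 4 and 3 in the group labelled KO, where 5289 of 13141 genes were called.

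The log2 ratio of the summed share was 0.02 in dHep and 0.26 in the group labelled KO against WT, and 0.44 and 0.62 for summed RPKM. Leaving out 1 library gave -0.09 to 0.09 for dHep (below 0 without dHep 3), 0.23 to 0.29 for the group labelled KO and 0.18 to 0.35 between them.

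Replicate numbers did not pair the samples: residuals of same-numbered libraries correlated from -0.272 to 0.0273, none of 9 pairs over 0.1. With the replicate block, members called were 6, 5 and 0 in the 3 comparisons. Of 13141 genes, the block fit called 5292 between the group labelled KO and WT and 954 between the group labelled KO and dHep. In dHep against WT, 2659 of the 3192 genes called in the main fit were called again. With 3 libraries a group, the edgeR p-values weigh a group difference against the spread between these samples only. That spread was estimated over all 9 libraries, with information shared across genes. It was not equal in the groups. Log2 CPM of the dHep libraries correlated from 0.949 to 0.974, against 0.984 to 0.991 in WT and 0.974 to 0.989 in the group labelled KO. Fitted with WT alone, 7 members rose and 3 fell in the group labelled KO, where 7520 of 12905 genes were called. In dHep fitted with WT alone, 2 rose and 2 fell, and 2314 of the 3192 genes called in the main fit were called again.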
